A study of Homo sapiens with 18 samples.

Results

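The CCL3 and CCL4 chemokine cluster of human chromosome 17 comprised 6 of the 63677 genes of the count table: CCL3, CCL4 and their near-identical copies CCL3L1, CCL3L3, CCL4L1 and CCL4L2. The genes were chosen by identifier and not by a threshold on expression. Earlier results of these data had shown that the CCL4 copies differ between unstimulated cells with and without siRNA and in the response to lipopolysaccharide (LPS), so values in those contrasts are given as a description with no test. All 6 genes were present in the table and passed the filter on low counts, which left 16678 genes for testing.

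The 18 RNA libraries were prepared from THP-1 cells, a monocytic line derived from a human acute leukaemia. The cells had been transfected with a siRNA against TRAFD1 at 25 nM (KD) or with a non-targeting siRNA at 25 nM (SCR), or had been given no siRNA (WT). The labels differ on WT, which is called untreated in one place and given transfection mix without siRNA in another, so a difference between SCR and WT cannot be assigned to the siRNA or to the reagent. At 72 h after transfection each condition received either LPS at 10 ng/ml or medium for 4 h. The 6 groups held 3 libraries each, with replicates 1 to 3 unstimulated and replicates 4 to 6 with LPS. All groups come from one cell line, and no label states that the replicates are separate cultures, so p-values measure the spread between these libraries, which may be technical. In bulk RNA, fewer cells with a transcript and less of the transcript per cell cannot be told apart.

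CCL3, also called MIP-1 alpha, and CCL4, also called MIP-1 beta, are small secreted proteins that attract monocytes, T cells and natural killer cells to inflamed tissue. Both act through G protein-coupled receptors of the CC family, among which CCR1 binds CCL3. In monocytes and macrophages both genes are switched on rapidly when LPS engages TLR4 and activates NF-kB, and both messenger RNAs are short-lived. CCL3L1 and CCL3L3 encode a CCL3-type chemokine and CCL4L1 and CCL4L2 a CCL4-type chemokine. These copies arose by duplication of the segment that holds CCL3 and CCL4, and the number of copies differs between human genomes. TRAFD1 encodes a zinc finger protein known as a brake on Toll-like receptor and NF-kB signalling.

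In the GRCh37 build, with the gene models of GENCODE v44lift37, the 6 genes alternate in 3 pairs along chromosome 17. Identifiers in brackets are those of the count table, and gene models were matched to them by symbol. For CCL3, CCL4 and CCL3L3 the gene models carry other identifiers. CCL3 (ENSG00000006075) lies at 34415602 to 34417515 on the minus strand, and CCL4 (ENSG00000129277) at 34431220 to 34433014 on the plus strand. The next pair is CCL3L3 (ENSG00000256515) at 34522268 to 34524157 on the minus strand and CCL4L1 (ENSG00000205020) at 34538310 to 34540280 on the plus strand. The last pair is CCL3L1 (ENSG00000205021) at 34623842 to 34625731 on the minus strand and CCL4L2 (ENSG00000197262) at 34639793 to 34641846 on the plus strand. The antisense gene CCL3-AS1 overlaps CCL3, and without a stated strand setting reads from both cannot be told apart.

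The libraries read RNA from its 3′ end, and the last exon carries the bases that decide to which copy a read can be assigned. The coding part of the last exon is shown for the 6 genes, 5′ to 3′ on the coding strand of GRCh37, with the positions that differ between a gene and its copies in capitals. Positions are counted from 1 at the first base shown.
CCL3: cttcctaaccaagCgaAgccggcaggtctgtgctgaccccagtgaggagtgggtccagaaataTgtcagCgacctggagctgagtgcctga
CCL3L1: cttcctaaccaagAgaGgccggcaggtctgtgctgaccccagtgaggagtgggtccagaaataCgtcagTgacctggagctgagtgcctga
CCL3L3: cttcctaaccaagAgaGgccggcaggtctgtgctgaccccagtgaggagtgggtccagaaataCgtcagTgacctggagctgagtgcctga
CCL4: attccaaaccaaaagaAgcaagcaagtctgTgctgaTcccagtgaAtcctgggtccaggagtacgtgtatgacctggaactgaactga
CCL4L1: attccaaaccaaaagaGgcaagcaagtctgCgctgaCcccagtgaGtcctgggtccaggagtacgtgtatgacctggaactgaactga
CCL4L2: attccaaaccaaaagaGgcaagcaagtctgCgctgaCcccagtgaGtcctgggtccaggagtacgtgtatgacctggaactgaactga

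From CCL3 to CCL3L1 and CCL3L3 the 91 bases carried 4 substitutions, C14A, A17G, T64C and C70T. From CCL4 to CCL4L1 and CCL4L2 the 88 bases carried 4 substitutions, A17G, T31C, T37C and A46G. CCL3L1 and CCL3L3 were identical over this stretch, and so were CCL4L1 and CCL4L2. Over the whole last exon CCL3 shared 96.5% of 508 aligned bases with CCL3L1, whereas CCL3L1 and CCL3L3 differed at 1 of 508. CCL4 shared 94.7% of 397 bases with CCL4L1 and with CCL4L2, and the 2 copies differed at 0 of 397.

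The share of unique sequence followed from this. Of all stretches of 50 bases in the last exon, 86.7% occurred once on chromosome 17 for CCL3 and 86.2% for CCL4. The share was 10.9% for CCL3L1 and 0% for CCL3L3, CCL4L1 and CCL4L2. With stretches of 75 bases it was 97.9% for CCL3, 96.6% for CCL4, 17.3% for CCL3L1, 5.07% for CCL3L3 and 0% for both CCL4 copies. The read length and the treatment of reads with several alignments are not given in the sources used here.

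The counts of the copies mirrored their sequences. CCL3L1 and CCL3L3 had identical counts in 5 of 18 libraries, and the ratio of CCL3L3 to CCL3L1 stayed between 0.995 and 1.03. CCL4L1 and CCL4L2 had identical counts in 7 of 18 libraries, with a ratio between 0.990 and 1.01. Around 1 common ratio per pair, both pairs varied by less than the sampling noise of independent counts (chi-square of 0.514 and 0.0831 on 17 degrees of freedom). Each pair therefore stands for 1 measurement, and the 6 genes give 4 separable signals.

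Of the cluster, 2 of 6 genes, CCL3 and CCL3L3, had an entry in the RefSeq promoter table (GRCh38.p14); CCL4, CCL3L1, CCL4L1 and CCL4L2 had none. The 250 bases before the start site are shown for these 2 genes. The counts do not separate CCL3L3 from CCL3L1, so they give no measure of the CCL3L3 promoter alone. Capitals mark matches to TATAAA, the TATA box, and to TTNNGNAA, the C/EBP motif, a site of a factor family active in myeloid cells. The windows are chr17:36090144-36090393 for CCL3 and chr17:36196759-36197008 for CCL3L3, both on the minus strand.
CCL3: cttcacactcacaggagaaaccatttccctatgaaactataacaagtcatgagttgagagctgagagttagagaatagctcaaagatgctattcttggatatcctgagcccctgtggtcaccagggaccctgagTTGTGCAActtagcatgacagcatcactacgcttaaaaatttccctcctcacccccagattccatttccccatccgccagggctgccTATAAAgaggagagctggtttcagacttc
CCL3L3: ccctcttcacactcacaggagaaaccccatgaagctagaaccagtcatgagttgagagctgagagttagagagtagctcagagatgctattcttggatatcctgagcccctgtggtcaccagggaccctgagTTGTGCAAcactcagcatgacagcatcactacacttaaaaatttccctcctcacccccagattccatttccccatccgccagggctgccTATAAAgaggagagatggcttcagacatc

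Motifs were searched on both strands of the table's full windows of 300 bases, which also hold 50 bases after the start site. TATAAA matched 1 time in each promoter, at position -29 from the start site, and occurred in 11.6% of all 34943 promoters of the table. TTNNGNAA matched 1 time in each, at -116 in CCL3 and -118 in CCL3L3, and occurred in 36.9% of all promoters. The AP-1 motif TGANTCA and the kB consensus had 0 matches in both windows and were found in 7.72% and 11.3% of all promoters. These are matches of letters and not measured binding sites. The 2 windows were 91.7% identical over 302 aligned bases.

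Total counts ran from 8206023 to 22344279 per library, so that a count of 0 allows a level of up to 3 counts, or 0.134 to 0.366 counts per 1000000 counts (CPM). Intervals of this kind cover counting error only. TRAFD1, the siRNA target, was at 8.67 ± 3.14 CPM (SD, n = 3) in unstimulated KD and 23.7 ± 3.38 CPM in unstimulated SCR, a log2 difference of -1.45 with an edgeR adjusted p of 0.0277. That call was lost when SCR replicate 1, SCR replicate 3 or KD replicate 2 was left out, with an adjusted p of up to 0.119. It was also lost with only the 2 compared groups in the fit, where 0 genes were called. With LPS TRAFD1 was at 14.5 ± 1.12 CPM in KD and 22.7 ± 4.42 CPM in SCR, a log2 difference of -0.65 with an adjusted p of 0.262. Its unadjusted edgeR p was under 0.05, but it did not pass the test in stimulated cells, where 0.00% of all genes did. All 4 LPS check genes, TNF, IL1B, CXCL8 and NFKBIA, rose with LPS in each condition. All 12 monocytic marker genes were detected and tested, led by ITGB2 at a mean of 3148 CPM, while of the markers of other cell types HBB had 0 counts, CD3E 1 and EPCAM 9 in all 18 libraries.

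CPM values below are counts per 1000000 counts with library sizes scaled by TMM, and because 3′ sequencing reads a transcript from its end only, gene length does not enter them. In unstimulated WT cells CCL3 was detected at 14.5, 20.2 and 19.7 CPM and CCL4 at 2.03, 1.45 and 2.71 CPM. The CCL4 values rested on 36, 16 and 61 reads. CCL3L1 was at 9.78, 11.99 and 10.4 CPM and CCL4L1 at 2.49, 1.45 and 2.36 CPM in the same libraries. Resting WT cells thus had CCL3-type transcripts above CCL4-type transcripts in every library.

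In unstimulated SCR cells CCL3 was at 50.5, 77.2 and 56.3 CPM, and all 3 libraries lay above all 3 WT libraries. CCL4 was at 8.62, 12.1 and 8.24 CPM, again above every WT library. The log2 difference from WT was 1.76 (SE 0.166) for CCL3, a fold of 3.38, and 2.14 (SE 0.224) for CCL4, a fold of 4.40. For the copies it was 1.53 (SE 0.162) for CCL3L1, 1.52 (SE 0.161) for CCL3L3, 2.36 (SE 0.202) for CCL4L1 and 2.35 (SE 0.202) for CCL4L2. The 6 genes were higher without overlap between the groups, where 11.1% of all tested genes were, and nothing is read from this count, since earlier results in this contrast led to the choice of the cluster.

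Before LPS the KD libraries lay in the range of the SCR libraries or close to it. CCL3 was at 54.3, 68.0 and 52.2 CPM and CCL4 at 12.7, 13.6 and 7.46 CPM. Against WT the log2 difference was 1.68 (SE 0.166) for CCL3 and 2.37 (SE 0.223) for CCL4, and for the copies it ran from 1.42 for CCL3L1 and CCL3L3 to 2.32 for CCL4L1. Here too the 6 genes were higher without overlap, beside 10.8% of all genes tested. The SCR and KD contrasts share the WT libraries, so they are not separate evidence.

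With LPS the groups came close together. CCL3 reached 238, 253 and 244 CPM in WT, 229, 328 and 325 CPM in SCR, and 216, 195 and 213 CPM in KD. CCL4 reached 216, 249.8 and 199.8 CPM in WT, 257, 287 and 250.2 CPM in SCR, and 194, 183 and 205 CPM in KD. CCL4 was thus near 2 CPM in resting WT cells and in the same range as CCL3 after LPS.

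**Figure D1:**
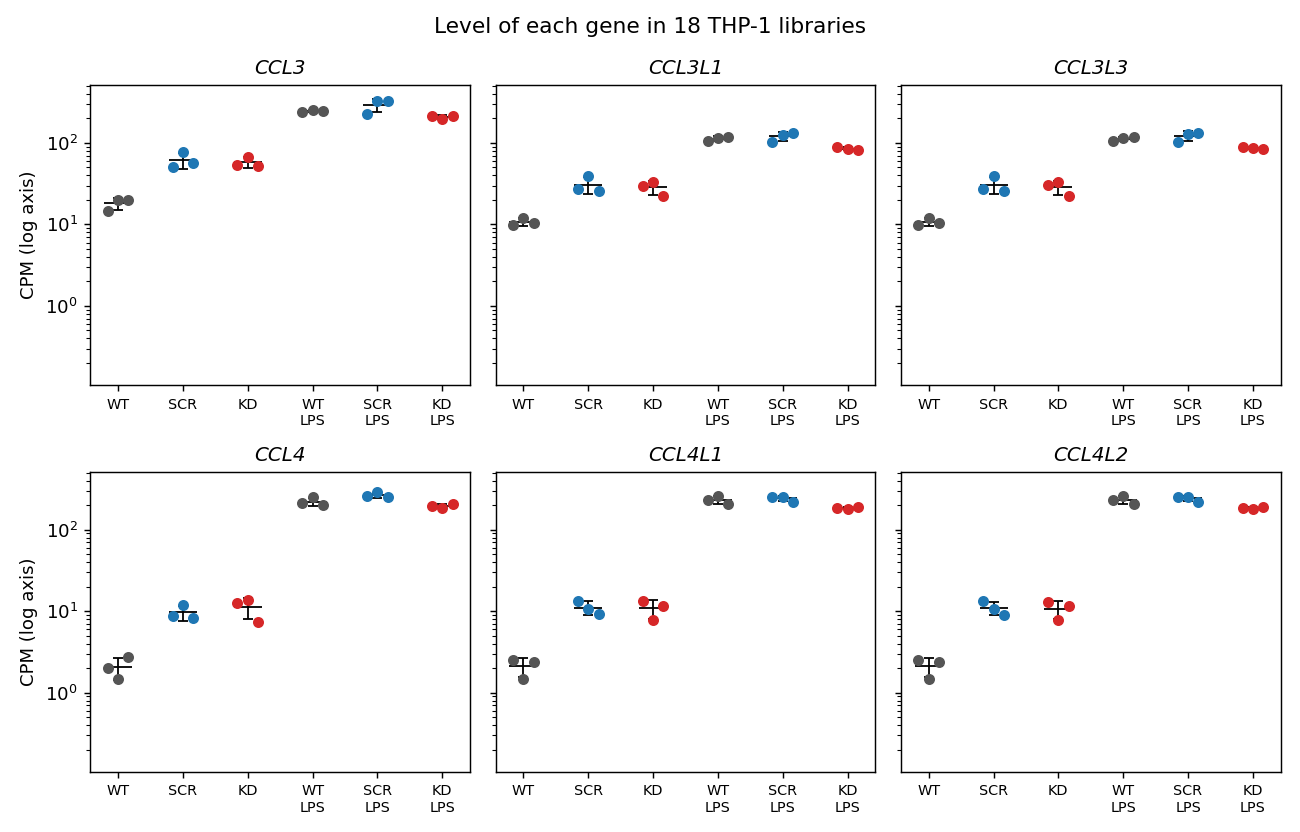
Level of the 6 genes in each library, in CPM on a log axis, by group without and with LPS; points are libraries, and bars give the mean and SD of 3 libraries. WT sits lowest before LPS (CCL3 at 14.5 to 20.2 CPM against 50.5 to 77.2 CPM in SCR), and the 3 conditions lie close together after LPS.

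The LPS response, described with no test, was steepest for the CCL4-type genes in each condition. In WT the log2 change was 3.76 (SE 0.175) for CCL3 and 6.67 (SE 0.222) for CCL4, folds of 13.5 and 102. In SCR it was 2.27 (SE 0.162) and 4.79 (SE 0.193), folds of 4.81 and 27.7. In KD it was 1.84 (SE 0.160) and 4.11 (SE 0.187), folds of 3.58 and 17.3.

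The copies followed their parent genes. CCL3L1 changed by 3.41 log2 units in WT, by 1.98 with SCR and by 1.58 with KD. CCL4L1 changed by 6.73, 4.44 and 4.09 log2 units, in the same order. The 6 genes were higher with LPS without overlap in each condition, where 15.0% of all tested genes were in WT, 17.5% in SCR and 12.8% in KD. The median log2 LPS change over all tested genes lay at -0.030 in WT, -0.027 in SCR and -0.0029 in KD.

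The smaller LPS fold in SCR and KD went with a higher level before LPS and levels in the same range after it. For CCL3 the LPS change in SCR was 1.49 log2 units below that in WT (SE 0.225), and for CCL4 1.88 units below (SE 0.276). The difference was 1.42 for CCL3L1, 1.41 for CCL3L3, 2.29 for CCL4L1 and 2.28 for CCL4L2. In KD against WT it ran from 1.81 for CCL3L3 to 2.63 for CCL4L1. These differences are again values without a test, and they contain the unstimulated difference already given.

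In the order of mean level, CCL3 stood lowest in unstimulated WT at 18.1 ± 3.17 CPM (SD, n = 3). Unstimulated KD at 58.2 ± 8.59 CPM and unstimulated SCR at 61.3 ± 14.0 CPM overlapped. Above them came KD with LPS at 208 ± 11.3 CPM, WT with LPS at 245 ± 7.73 CPM and SCR with LPS at 294 ± 56.6 CPM. The KD and WT libraries with LPS did not overlap, while those of WT and SCR did, since SCR replicate 4 lay below every WT library.

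CCL4 gave the order WT at 2.07 ± 0.630 CPM, SCR at 9.64 ± 2.10 CPM and KD at 11.2 ± 3.29 CPM before LPS, of which SCR and KD overlapped. With LPS it was at 194 ± 10.97 CPM in KD, 222 ± 25.6 CPM in WT and 264 ± 19.4 CPM in SCR. For CCL4 the KD and WT libraries with LPS overlapped, and the SCR libraries lay above the WT libraries by a narrow margin, 250.2 CPM against 249.8 CPM at the nearest. CCL4L1 was lowest in unstimulated WT at 2.10 ± 0.563 CPM, close to 11 CPM in unstimulated SCR (11.1 ± 2.08) and KD (10.8 ± 2.79), and at 186 ± 5.21 CPM in KD, 231 ± 27.0 CPM in WT and 243 ± 18.3 CPM in SCR with LPS. CCL3L1 ran from 10.7 ± 1.14 CPM in unstimulated WT to 121 ± 16.3 CPM in SCR with LPS.

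The first tested comparison asked whether TRAFD1 siRNA changes the cluster in resting cells beyond a non-targeting siRNA. No member passed the test, beside 0.0660% of all tested genes. The log2 difference of KD from SCR was -0.07 (SE 0.158) for CCL3 and 0.24 (SE 0.190) for CCL4, and the adjusted p ran from 0.655 to 0.951 over the 6 genes in edgeR. For each member the KD and SCR libraries overlapped, where 15.1% of all genes did not. Of the 6, 0 had an unadjusted p under 0.05, beside 2107 of all 16678 genes, and DESeq2 called 0, beside 242. The signs of these small differences are not stable, since leaving out single libraries turned those of CCL3, CCL3L1, CCL3L3, CCL4L1 and CCL4L2.

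With LPS every member was lower in KD than in SCR, without overlap between the libraries, but none passed the test over all genes. CCL3L1 was at 89.3, 84.1 and 82.8 CPM in KD and at 103, 127 and 134 CPM in SCR. CCL4L1 was at 186, 181 and 191 CPM in KD and at 253, 254 and 222 CPM in SCR. KD lay below SCR in both, as it did for CCL3 and CCL4 above.

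The log2 difference was -0.50 (SE 0.153) for CCL3, with an edgeR adjusted p of 0.217. It was -0.51 (SE 0.147) for CCL3L1 with an adjusted p of 0.209, and -0.45 (SE 0.158) for CCL4 with an adjusted p of 0.274. For CCL3L3, CCL4L1 and CCL4L2 it was -0.50, -0.39 and -0.38, with adjusted p up to 0.310. The unadjusted p ran from 0.00244 to 0.0158. The 6 genes lower without overlap stand beside 10.7% of all tested genes, and they are 4 signals and not 6, since the copies share reads. The test called 0.00% of all genes in this contrast, with 1963 of 16678 genes at an unadjusted p under 0.05, and DESeq2 called 142.

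The result depended on the test used. Over 6 other settings, 12 of 36 values of the members had an adjusted p under 0.05, the lowest being 0.00185 for CCL3 with no filter on low counts. Over all genes DESeq2 called 142, no filter 425, the compared groups alone 161 and the replicate block 85. The 36 values count near-identical copies separately and come from the same libraries, so they are not separate results. When 1 of the 6 libraries was left out, 0 of 36 values passed, with an adjusted p of 0.232 to 0.667 and a log2 difference that stayed between -0.65 and -0.35. TRAFD1 itself did not pass the test in this contrast, where the test called 0.00% of all genes.

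SCR and WT with LPS did not differ by the test for any member, beside 0.114% of all genes called. The log2 difference was 0.26 (SE 0.153) for CCL3, 0.25 (SE 0.158) for CCL4, 0.10 (SE 0.147) for CCL3L1 and 0.07 (SE 0.145) for CCL4L1, with edgeR adjusted p of 0.453 to 0.877 over the 6 genes. None had an unadjusted p under 0.05, beside 2285 of all 16678 genes, and DESeq2 called 0 of them, beside 196 over all genes. CCL4 was higher in SCR without overlap, 1 of 6 members, where 10.6% of all genes were. Without WT replicate 6 the difference of CCL4L1 turned to -0.0091.

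KD against WT with LPS had many calls over all genes, 10.8% of those tested, and none among the 6 members. The log2 difference was -0.41 (SE 0.147) for CCL3L1 with an edgeR adjusted p of 0.0804, -0.39 (SE 0.146) for CCL3L3 with 0.0916 and -0.32 (SE 0.145) for CCL4L1 with 0.167. CCL3 differed by -0.24 and CCL4 by -0.19, with adjusted p of 0.348 and 0.474. Of the 6 members 4 had an unadjusted p under 0.05, as did 4413 of all 16678 genes tested. DESeq2 called 1 member, CCL3L1, beside 2299 calls over all genes. In all, 5 of 6 members were lower in KD without overlap, CCL4 being the exception, where 16.4% of all genes were. With the fit to the compared groups alone, all members but CCL4 passed, beside 3235 calls over all genes. The adjusted p of CCL3L1 was 0.00191 in that fit. This contrast shares the KD libraries with the one against SCR.

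The LPS response of KD against that of SCR was tested as an interaction, which asks whether the change with LPS differs between the siRNAs. The difference was -0.68 (SE 0.247) log2 units for CCL4, with an unadjusted p of 0.0116 and an edgeR adjusted p of 0.603. For the other members it ran from -0.43 for CCL3 to -0.34 for CCL4L2, with adjusted p of 0.665 to 0.737. No gene of all those tested passed, 0.00%, while 1274 had an unadjusted p under 0.05 and DESeq2 called 3. Without the filter on low counts CCL4 gave -0.69 with an adjusted p of 0.0459.

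**Figure D2:**
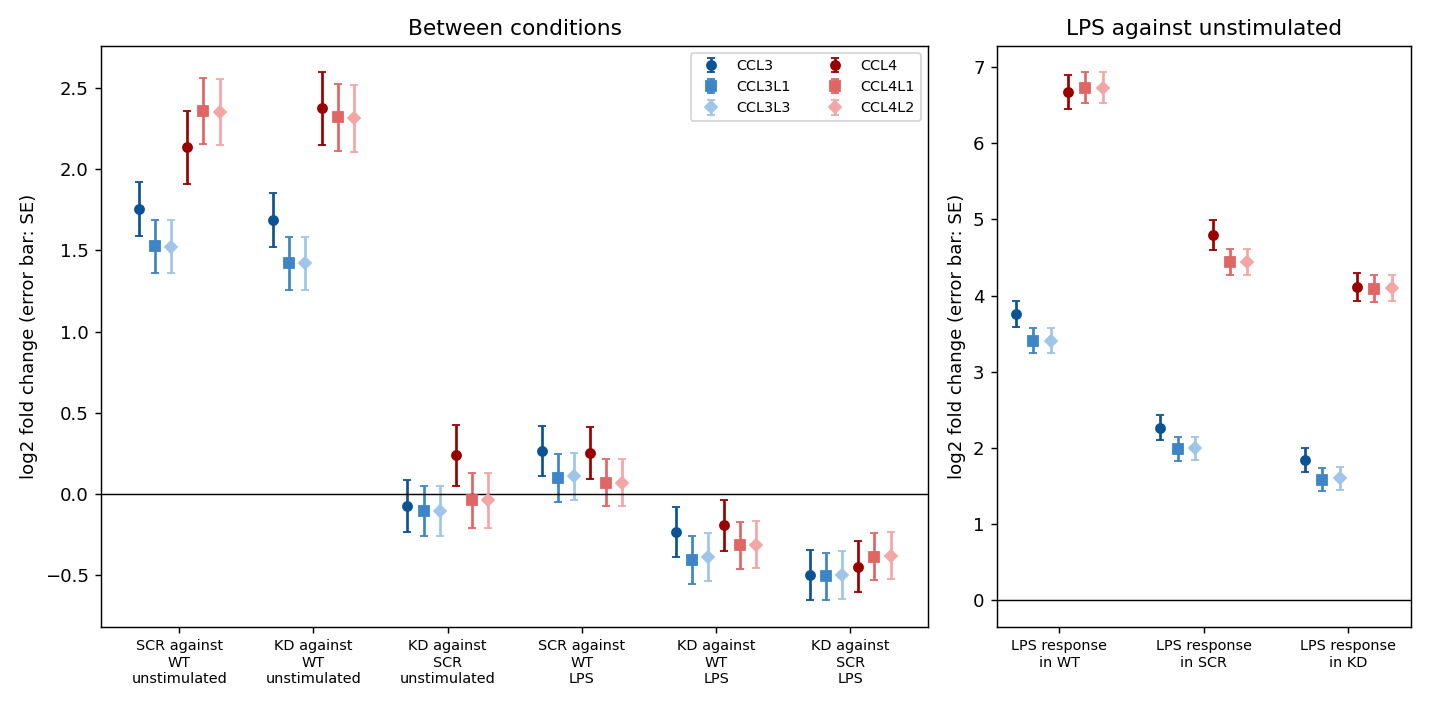
Log2 fold change of the 6 genes between conditions (left) and with LPS (right); points are edgeR estimates from 18 libraries and bars 1 SE. Both siRNA groups lie far above WT before LPS (1.42 to 2.37), whereas with LPS the difference of KD from SCR lies between -0.51 and -0.38.

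Levels were also set against each other within a library, where depth cancels. CCL4 per CCL3 was 0.117 ± 0.0387 (SD, n = 3) in unstimulated WT, 0.158 ± 0.0122 in SCR and 0.192 ± 0.0457 in KD. With LPS it was 0.904 ± 0.0833 in WT, 0.922 ± 0.182 in SCR and 0.933 ± 0.0338 in KD. The ratio followed stimulation and was close between the conditions with LPS.

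CCL4L1 per CCL4 varied around 1. It was 1.04 ± 0.0164 in WT, 0.919 ± 0.0562 in SCR and 0.958 ± 0.0273 in KD with LPS. Before LPS it spread more widely, with 1.03 ± 0.179 in WT, 1.18 ± 0.329 in SCR and 1.05 ± 0.484 in KD, where the single libraries ran from 0.573 to 1.54. CCL3L1 per CCL3 was lower, at 0.598 ± 0.0756 in WT, 0.502 ± 0.0394 in SCR and 0.490 ± 0.0570 in KD before LPS. With LPS it was 0.462 ± 0.0246, 0.416 ± 0.0314 and 0.411 ± 0.0209. Since the treatment of shared reads is not stated, a ratio of a copy to its parent is not a ratio of gene copies or of transcripts.

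**Figure D3:**
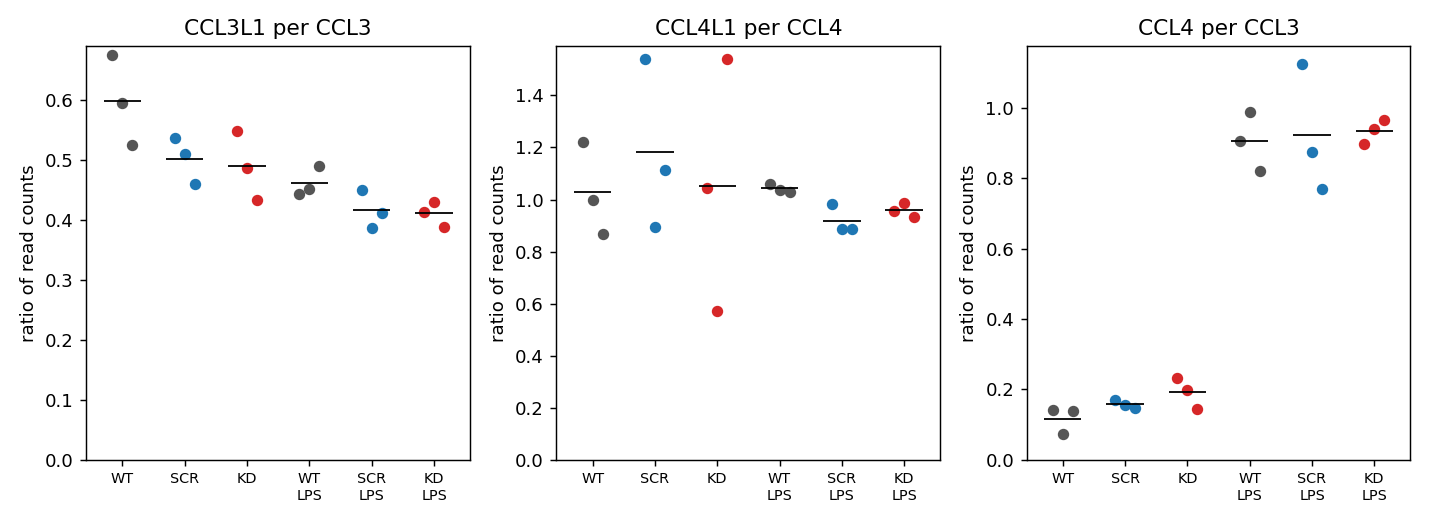
Ratio of read counts of CCL3L1 to CCL3, CCL4L1 to CCL4 and CCL4 to CCL3 in each library, by group; points are libraries and lines the mean of 3. CCL4 per CCL3 sits at 0.117 to 0.192 on average before LPS and at 0.904 to 0.933 after LPS in the 3 conditions.

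Among the 5 genes whose pattern over the 18 libraries was most like CCL3 were TNF with a Pearson r of 0.993, CD83 with 0.983, NFKBIE with 0.982 and ICAM1 with 0.982. TNF encodes the cytokine tumour necrosis factor, CD83 a surface protein of activated myeloid cells, NFKBIE an inhibitor of NF-kB and ICAM1 an adhesion molecule. Those most like CCL4 were SQSTM1 with 0.993, TNFAIP3 with 0.991, ENSG00000155130, for which the symbol table used here gave no symbol, with 0.990, HMOX1 with 0.987 and CXCL11 with 0.987. TNFAIP3 encodes the ubiquitin-editing brake A20, SQSTM1 an autophagy receptor and HMOX1 a haem-degrading enzyme. These values on log2 CPM are a description, since the libraries share the 6 group levels. TNF was at 15.9 ± 3.01 CPM in unstimulated WT, at 43.3 ± 7.10 CPM with SCR siRNA and at 43.2 ± 7.53 CPM with TRAFD1 siRNA, and LPS took it to 141 ± 11.1, 144 ± 14.2 and 114 ± 10.5 CPM.

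Of 12 receptor genes of CC chemokines, 6 could be tested. CCR1, a receptor of CCL3, was at 115 ± 7.61 CPM (SD, n = 3) in unstimulated WT and 170 ± 17.7 CPM in WT with LPS. It rose with LPS in WT by 0.56 log2 units (SE 0.103, adjusted p of 0.000565 in edgeR). In SCR the LPS change was 0.30 with an adjusted p of 0.0487, a call that was lost without SCR replicate 2, 3, 4 or 6, and in KD it was 0.089 with an adjusted p of 0.630.

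CCR2, the receptor of CCL2, fell with LPS, by 0.85 log2 units in WT, 0.55 with SCR and 0.39 with KD, with edgeR adjusted p of 1.02e-06, 0.000383 and 0.00890. It was at 124 ± 5.32 CPM in unstimulated WT, against 78.4 ± 6.35 CPM with SCR siRNA and 74.3 ± 2.85 CPM with TRAFD1 siRNA. Its log2 difference was -0.66 in SCR against WT (SE 0.0932, edgeR adjusted p of 0.000371) and -0.74 in KD against WT (SE 0.0934, adjusted p of 4.77e-05), and both calls were kept whichever of the 6 libraries was left out. ACKR2, a scavenging receptor and the third most highly counted of the list, was at 0.973 to 5.60 CPM over the libraries.

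In the 5 contrasts tested for the members 0 of the 6 receptors passed in edgeR. An unadjusted p under 0.05 was reached by 1 receptor in SCR against WT and by 1 in KD against WT with LPS, beside 2285 and 4413 of all 16678 genes. DESeq2 called 1 in each of these, beside 196 and 2299 over all genes, and 0 in the other 3 contrasts. In KD against WT with LPS upper quartile scaling and the fit to the compared groups alone also called 1, beside 1955 and 3235 over all genes. In unstimulated SCR against WT, where 3.23% of all genes passed, 1 receptor was higher and 1 lower. The lower one was CCR2, and the higher one was CCR7, a homing receptor named here after its values were seen, with 0 counts in the 3 WT libraries and 0.268 ± 0.0432 CPM in SCR. The call of CCR7 was lost whichever library was left out.

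Of 22 other CC chemokines 17 were found by symbol and 7 were tested; CCL14, CCL15, CCL16, CCL18 and CCL23 were not analysed here. With LPS 5 of 7 rose in WT and 4 in each siRNA condition, and 0 fell, beside 14.3%, 17.2% and 11.5% of all genes that passed in either direction. CCL2, the monocyte attractant that binds CCR2, changed by 2.99, 2.74 and 2.76 on the log2 scale in WT, SCR and KD, and the others were CCL8, CCL19, CCL20 and, in WT, CCL13. The call of CCL13, with an edgeR adjusted p of 0.0251, was lost without unstimulated WT replicate 1 or 3 or LPS-treated WT replicate 5 or 6. CCL2, CCL13 and CCL20 are named here after their values were seen. Before LPS, 0 of these 7 genes passed in edgeR in SCR against WT or KD against WT, beside 3.23% and 11.7% of all genes. In each contrast 1 had an unadjusted p under 0.05, beside 2866 and 4297 of all 16678 genes. In SCR against WT 1 gene was called higher with DESeq2, with upper quartile scaling, with no filter on low counts and with the replicate block, and in KD against WT 1 was called with no filter. Whether the 2 sets of genes differ was not tested.

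In KD against WT with LPS, where 10.8% of all genes passed in either direction, 1 of the 7 was higher and 1 lower. CCL8, a monocyte attractant, was at 18.9 ± 7.81 CPM in KD and 4.21 ± 2.12 CPM in WT, a log2 difference of 2.16 (SE 0.474, edgeR adjusted p of 0.00803), and the call was lost without WT replicate 6 or KD replicate 5. CCL19, a lymphoid homing chemokine, was at 1.12 ± 0.471 CPM in KD and 3.81 ± 0.603 CPM in WT, a log2 difference of -1.78 with an adjusted p of 0.0411, and the call was lost whichever library was left out.

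The list of NF-kB subunits, inhibitors and mRNA decay regulators held 18 genes, of which 17 were tested. In unstimulated SCR against WT the list median was 0.65 on the log2 scale beside 0.0057 over all genes. In this contrast 10 of 17 were higher and 0 lower, where 3.23% of all genes passed in either direction. Among them RELB, a non-canonical NF-kB subunit, was at 80.4 ± 21.4 CPM in WT and 183 ± 10.8 CPM in SCR, a log2 difference of 1.19 with an edgeR adjusted p of 0.000376. TNFAIP3 was at 11.5 ± 1.19 CPM in WT and 24.7 ± 2.27 CPM in SCR, a difference of 1.10. It is among the genes most like CCL4, and NFKBIE of this list among those most like CCL3, so no p is given for TNFAIP3. The count of 10 higher genes includes both and is not separate from the choice of the cluster. The count was 8 to 10 when 1 library was left out. In unstimulated KD against WT, where 11.7% of all genes passed, 10 of the list were higher and 1 lower, and the count of called genes dropped from 11 to 7 without WT replicate 1 or WT replicate 3.

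With LPS 13 of 17 genes rose in WT, 11 with SCR and 12 with KD, and 1 fell in each, beside 14.3%, 17.2% and 11.5% of all genes that passed in either direction. Between the conditions with LPS, 0 of 17 passed in edgeR in KD against SCR and in SCR against WT, beside 0.00% and 0.114% of all genes. An unadjusted p under 0.05 was reached by 7 and 6, beside 1963 and 2285 of all 16678 genes. DESeq2 called 0 and 2, beside 142 and 196 over all genes. With no filter on low counts 4 passed in each, beside 425 and 593. The replicate block called 0 and 2, beside 85 and 135, and the compared groups alone 1 and 0, beside 161 and 47. In KD against WT with LPS, where 10.8% of all genes passed, 2 of the list were higher and 4 lower. With the compared groups alone 2 were higher and 8 lower, beside 3235 calls over all genes. RELA, the main transactivating NF-kB subunit, was at 96.5 ± 0.854 CPM in KD and 146 ± 19.9 CPM in WT, a log2 difference of -0.60 with an edgeR adjusted p of 0.00369. ZC3H12A, an RNase that degrades inflammatory messenger RNAs, was at 134 ± 3.71 CPM in KD and 213 ± 7.79 CPM in WT, a log2 difference of -0.67 with an adjusted p of 0.00293.

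RELA and ZC3H12A kept their calls whichever library was left out. RELB at -0.57 and NFKBIA at -0.30 were the other lower genes. CHUK, a kinase of the NF-kB pathway, at 1.73 and ZFP36, a decay factor that binds AU-rich elements, at 0.93 on the log2 scale were the higher ones. The calls of RELB, NFKBIA and ZFP36 were lost whichever library was left out, and that of CHUK without WT replicate 6 or KD replicate 5. The count of 6 called genes was 3 without WT replicate 4, WT replicate 5 or KD replicate 6, and 2 without WT replicate 6 or KD replicate 5.

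The summed level of the 12 monocytic markers was mostly that of ITGB2, a leukocyte integrin chain. The sum was 3133 to 3372 CPM in unstimulated KD and 4084 to 4977 CPM in unstimulated SCR, without overlap. With LPS it was 3376 to 3442 CPM in KD, 3413 to 3767 CPM in SCR and 3989 to 4136 CPM in WT. ITGB2 alone was at 2588 ± 87.7 CPM in unstimulated KD and 3766 ± 478 CPM in unstimulated SCR, a log2 difference of -0.54 with an edgeR adjusted p of 0.0341. That call was lost with the compared groups alone, where 0 genes were called, and 1 to 52 genes were called with 1 library left out. The median log2 difference of the 12 markers between KD and SCR was 0.046 before LPS and 0.26 with LPS, and 0 of 12 passed with LPS. The summed level of 13 markers of other cell types was 14.2 to 21.6 CPM in all libraries. Mitochondrial genes took 3.19% to 3.47% of the counts in unstimulated WT and SCR, 3.87% to 4.86% in unstimulated KD and 3.72% to 5.20% in the libraries with LPS. The part of these differences in the values of the cluster was not tested, and no label names a batch.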

How the data were processed

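The members and gene lists were chosen with earlier results of these data known. The authors prepared QuantSeq 3′ libraries, sequenced them on a NextSeq500, aligned reads with HISAT to GRCh37 with Ensembl 75 and counted them with featureCounts (RSubread 1.6.2) over 500 bases at one end of each gene. The deposited table holds raw read counts of 63677 genes, and 0 of its columns were left out. Here, filterByExpr by group left 16678 genes, and edgeR 4.0.16 (R 4.3.3) fitted 1 mean per group to all 18 libraries, with TMM scaling, quasi-likelihood F tests and Benjamini-Hochberg adjustment over all genes tested (threshold 0.05). SE is the log2 fold change over the square root of F. An exact permutation test of 3 against 3 libraries cannot go below 0.1. Of 12 contrasts, 5 were tested for the members. Named genes were the 6 members, TRAFD1, the LPS check genes, the 5 genes most like CCL3 and CCL4 by Pearson r of log2 CPM (prior count 2), and list members past the threshold in those 5 contrasts or else the 3 most highly counted. Some items that this rule names are not reported here. Alternatives were DESeq2 1.42.0, another scaling, no filter, the compared groups alone, a replicate block and leaving out libraries. Replicate numbers were taken to pair the samples only for SCR and WT with LPS. Each SCR library there deviated most like the WT library of its number (r of 0.261, 0.163 and 0.253). The replicate block changed no member's call in that contrast. LPS and unstimulated libraries share no numbers. Last exons came from the GRCh37 genome and promoters from RefSeq.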

Additional observations from a re-analysis of the deposited data

How the results depend on the processing

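Over the 12 contrasts, 872 of 912 values of the members kept their direction and their side of the threshold or moved by less than the replicate spread. The cause of the changes was not tested. In KD against SCR with LPS the log2 difference (adjusted p) was -0.52 (0.0418) for CCL3L1 and -0.51 (0.0431) for CCL3L3 with DESeq2. With no filter on low counts it was -0.51 (0.00185) for CCL3, -0.52 (0.00893) for CCL3L1, -0.51 (0.0111) for CCL3L3 and -0.46 (0.0130) for CCL4. With only the compared groups it was -0.51 (0.0363) for CCL3L1, -0.50 (0.0374) for CCL3L3, -0.45 (0.0285) for CCL4, -0.39 (0.0445) for CCL4L1 and -0.39 (0.0461) for CCL4L2. In KD against WT with LPS it was -0.43 (0.0433) for CCL3L1 with DESeq2, and -0.42 (0.0251) for CCL3L1 and -0.40 (0.0360) for CCL3L3 with no filter. There the compared groups alone gave -0.26 (0.0215) for CCL3, -0.43 (0.00191) for CCL3L1, -0.41 (0.00254) for CCL3L3, -0.34 (0.00836) for CCL4L1 and -0.33 (0.00895) for CCL4L2. In the interaction of KD and SCR, CCL4 was -0.69 (0.0459) with no filter. Leaving out 1 library brought no member past the threshold in any tested contrast.

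The replicate block gave -0.50 (0.0463) for CCL3L1 in KD against SCR with LPS, and -0.40 (0.0169) for CCL3L1 and -0.38 (0.0220) for CCL3L3 in KD against WT with LPS, and changed no other member's call. In both contrasts libraries share only a number (r of -0.0875 to 0.0896). Before LPS r was 0.304 for replicate 1 of KD and WT, against 0.0039 and 0.0494 for replicates 2 and 3 of that pair. The other values before LPS ran from -0.0526 to 0.0911. With the block the count of called genes was 183 in KD against SCR before LPS, 85 with LPS and 135 in SCR against WT with LPS. No paired analysis was possible for the LPS response because stimulated and unstimulated libraries share no numbers.

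In KD against SCR before LPS the sign turned for CCL4L1 (0.0044) and CCL4L2 (0.0055) with only the compared groups. Leaving out 1 library gave -0.20 to 0.12 for CCL3, -0.22 to 0.10 for CCL3L1, -0.21 to 0.10 for CCL3L3, -0.22 to 0.15 for CCL4L1 and -0.21 to 0.14 for CCL4L2 there. In SCR against WT with LPS it gave -0.0091 to 0.16 for CCL4L1 and -0.0090 to 0.16 for CCL4L2, negative without WT replicate 6. Without unstimulated SCR replicate 2, CCL3L3 moved by more than the replicate spread in SCR against WT before LPS and in the LPS response in SCR. The other members did not move by that much in these 2 contrasts. Over all left-out libraries CCL3L3 ran from 1.32 to 1.63 in the first and from 1.89 to 2.20 in the second, and the difference in LPS response between SCR and WT ran from -1.53 to -1.21 for CCL3L1 and from -1.52 to -1.20 for CCL3L3.

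The count of called genes was 11 in KD against SCR before LPS, 242 with DESeq2, 320 with no filter, 0 with only the compared groups and 1 to 52 with 1 library left out. With LPS it was 0, 142, 425 and 161 in the same order, and 0 with 1 library left out. In SCR against WT with LPS it was 19, 196, 593 and 47, 36 with upper quartile scaling, and 0 to 14 with 1 library left out. Of its calls 4 were higher and 15 lower, against 396 and 197 with no filter. In KD against WT with LPS 1808 genes were called, 3235 with only the compared groups and 376 to 1428 with 1 library left out. In the interaction of KD and SCR it was 0, 3 with DESeq2, 132 with no filter and 0 with 1 library left out. The CCL4-type genes of unstimulated WT, with 16 to 61 reads, set the depth limit of the cluster.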

Other observations

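Within the groups the members did not vary as one. Deviations of log2 CPM from the group means over the 18 libraries had a Pearson r of 0.834 between CCL3 and CCL3L1, 0.410 between CCL3 and CCL4, 0.244 between CCL4 and CCL4L1 and -0.480 between CCL3 and CCL4L1. The near-identical pairs stood at 0.999 for CCL3L1 with CCL3L3 and 1.00 for CCL4L1 with CCL4L2. The SD of these deviations was 0.227 log2 units for CCL3, 0.209 for CCL3L1, 0.295 for CCL4 and 0.266 for CCL4L1. These are descriptions of libraries that share depth and handling, and the CCL4-type counts of unstimulated WT cells, 16 to 61 reads, are the shallowest among them.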
